A study of Homo sapiens with 6 samples.

Results

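The RUNX transcription factors, their DNA-binding partner CBFB and the corepressors that act with them were examined in sorted MCF10AT1 breast epithelial cells. The set holds 9 genes of the 58381 gene IDs in the deposited table: RUNX1, RUNX2, RUNX3, CBFB, CBFA2T2, TLE1, TLE2, TLE3 and TLE4. They were chosen by name, through the GENCODE 29 symbol of each Ensembl ID, and each ID was found with its version. MCF10AT1 is a human line recovered from a mouse xenograft of immortal MCF10A cells that carry activated HRAS, so both fractions below share that oncogene. The tested fraction was CD24low with high CD44, called CSC (cancer stem cell) in the column names, with 3 libraries. It was set against the CD24high, CD44-positive fraction, called Bulk in the column names, with 3 libraries. Cells of both fractions grew in the same medium with horse serum, insulin, EGF, cholera toxin and hydrocortisone, and were sorted with antibodies to CD24 and CD44. The series title places the study in RUNX control of breast cancer stem cells, and the comparison asks how these genes differ between the fractions.

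RUNX proteins bind DNA through the Runt domain, and CBFB, which does not touch DNA itself, strengthens that binding. RUNX1 is known as a regulator of blood formation and is also expressed in breast epithelium, RUNX2 is the regulator of bone formation and is linked to invasion of breast cancer cells, and RUNX3 is best known in lymphocytes and neurons. At their C-terminal end RUNX proteins carry a short motif that recruits the Groucho proteins, named TLE in humans, which repress transcription together with histone deacetylases. CBFA2T2, also known as MTGR1, belongs to the ETO family of corepressors, whose founder RUNX1T1 is fused to RUNX1 in some acute myeloid leukaemias.

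RUNX genes are transcribed from a distal and a proximal promoter. RUNX2 was the member with the largest difference, and both of its promoter windows in the RefSeq table (GRCh38.p14) are shown to set their sequence side by side. The distal window is chr6:45328080-45328379 and the proximal one chr6:45422025-45422324, both on the plus strand, each with 250 bases before and 50 after an annotated start. Capitals mark the RUNX motif in the form TGTGGT, the only form searched, or its reverse complement ACCACA.
RUNX2 distal: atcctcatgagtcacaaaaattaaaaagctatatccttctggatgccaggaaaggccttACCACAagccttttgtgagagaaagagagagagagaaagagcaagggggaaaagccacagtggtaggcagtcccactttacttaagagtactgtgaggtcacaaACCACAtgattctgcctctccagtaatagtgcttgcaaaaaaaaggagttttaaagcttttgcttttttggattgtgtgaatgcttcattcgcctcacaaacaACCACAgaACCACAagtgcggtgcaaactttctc
RUNX2 proximal: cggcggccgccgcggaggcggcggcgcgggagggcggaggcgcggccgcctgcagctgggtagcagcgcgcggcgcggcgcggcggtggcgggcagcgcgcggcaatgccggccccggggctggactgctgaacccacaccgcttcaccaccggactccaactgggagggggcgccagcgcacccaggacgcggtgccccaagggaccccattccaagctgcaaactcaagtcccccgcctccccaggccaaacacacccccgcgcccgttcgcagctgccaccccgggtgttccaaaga
The distal window held 4 matches, none overlapping another, each as ACCACA. They began 191 and 87 bases before and 16 and 24 bases after the start. The proximal window held 0. Over both strands, 13.1% of the 35116 promoter windows in the table held at least 1 match, and 5 windows, 0.0142%, held at least 4. In all, 14 windows matched 8 of the 9 members (not CBFB), and 3 of them held a match: the RUNX2 distal window, 1 RUNX3 window with 2 matches and 1 TLE3 window with 2. The values are counts per gene, so they do not tell the promoters apart.

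The libraries held 16691162 to 27293177 reads. Ribosomal RNA (rRNA) genes were counted together with mitochondrial rRNA genes and rRNA pseudogenes. Their reads took 7.15%, 7.07% and 1.97% of CD24low replicates 1, 2 and 3. In CD24high replicates 1, 2 and 3 they took 1.30%, 2.27% and 10.2%. Each difference of a member, and of other genes printed with an SE, is therefore also given for the low-rRNA libraries alone, which are replicate 3 of CD24low and replicates 1 and 2 of CD24high. The high-rRNA libraries are the other 3, replicates 1 and 2 of CD24low and replicate 3 of CD24high. With 1 library on a side, neither comparison was tested. Epithelial markers were abundant: the summed level of 9 of them ran from 85730 to 127200 normalized counts in CD24low libraries and from 133500 to 157000 in CD24high libraries. DESeq2 called 3 of the 9 lower, KRT6A, CDH1 and TP63, beside 1.15% of all genes tested. The 8 fibroblast markers summed to 887 to 3839 normalized counts in CD24low libraries and to 52.6 to 359 in CD24high libraries. DCN made up most of that sum in each CD24low library. It had 985, 3704 and 846 normalized counts in CD24low and 146, 325 and 10.2 in CD24high libraries. Its adjusted p was 0.159 by limma and 0.105 by DESeq2. COL1A1 was the other fibroblast marker past the filter. LUM was at 0 in each library, and COL1A2, COL3A1, PDGFRA, PDGFRB and THY1 reached at most 11.5 normalized counts. Of 8 leukocyte markers, CD3E, SPI1 and GATA1 were at 0 in each library and PTPRC reached at most 1.98 normalized counts. CD68, the leukocyte marker past the filter, had 68.8, 117 and 50.0 normalized counts in CD24low and 61.4, 42.5 and 49.7 in CD24high libraries, highest in CD24low replicate 2. Of 4 endothelial markers, CDH5, VWF and KDR stayed at or below 11.7 normalized counts, while PECAM1 ran from 105 to 340 in CD24low and from 85.5 to 393 in CD24high libraries. CD24 had 588, 329 and 1370 normalized counts in CD24low and 4043, 2325 and 5687 in CD24high libraries. CD44, the other sorting marker, had 8294, 7479 and 6866 in CD24low and 8553, 7878 and 8993 in CD24high libraries. The ranges of CD44 RNA overlapped, with a limma adjusted p of 0.560, so its RNA was not higher in the CD24low fraction.

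Of the tested members, RUNX2 had the largest difference between the fractions. It had 111, 182 and 88.2 normalized counts in CD24low replicates 1, 2 and 3, against 32.4, 37.5 and 29.2 in CD24high replicates 1, 2 and 3. Behind these values were 126, 191 and 90 reads in CD24low and 39, 38 and 20 reads in CD24high libraries. Every CD24low library lay above every CD24high library, and CD24low replicate 2 was the highest. On the scale of log2 (normalized count + 1) the difference, CD24low minus CD24high, was 1.85 (SE 0.28, 95% interval 1.22 to 2.48), a 3.61-fold higher level. Only 0.816% of the 16047 genes tested, 131 genes, had a larger positive difference. Limma's adjusted p over those genes was 0.0676 and edgeR's 0.105, neither past 0.05, while DESeq2's was 1.22e-05. DESeq2 called RUNX2 in each fit that left out 1 library, with adjusted p from 7.56e-07 to 0.00137. Limma called it only without CD24low replicate 3 (2.08, adjusted p = 0.0126) among those fits. The difference was 1.31 in the low-rRNA libraries and 2.25 in the high-rRNA libraries. In bulk RNA, more cells that express a gene and more RNA per cell cannot be told apart. The higher level of RUNX2 moved with the lower epithelial and higher fibroblast marker sums given above, the latter mostly DCN in CD24low libraries. The part of these sums in the result was not tested.

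RUNX2 (ENSG00000124813.21, chromosome 6, 45328157 to 45664349, plus strand, hg38) overlaps SUPT3H on the opposite strand. SUPT3H, which encodes a subunit of transcription coactivator complexes, had 59.1, 77.4 and 53.9 normalized counts in CD24low and 64.7, 54.3 and 51.1 in CD24high libraries. Its ranges overlapped, unlike those of RUNX2. The antisense genes RUNX2-AS1 and AL096865.1 had at most 6.17 normalized counts. The strand setting of the counting is not given in the sources used here, so reads of opposite strands cannot be told apart with certainty.

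Across the set, 0 of 8 tested members passed limma's adjusted p of 0.05 and 1, RUNX2, passed DESeq2's. RUNX3 was not tested, since only genes whose mean reached 10 normalized counts were. Over all 16047 genes tested, limma called 0%, and DESeq2 called 1.36% higher and 1.15% lower in CD24low cells. At an unadjusted limma p below 0.05 there were 2 members, RUNX2 higher and TLE1 lower, where 13.5% of all genes lay below it. The libraries of the fractions did not overlap for 1 member above (RUNX2) and 1 below (TLE1), beside 10.2% of all genes above and 9.32% below. The median difference of the tested members was 0.08, and that of all genes tested was -0.007.

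**Figure D1:**
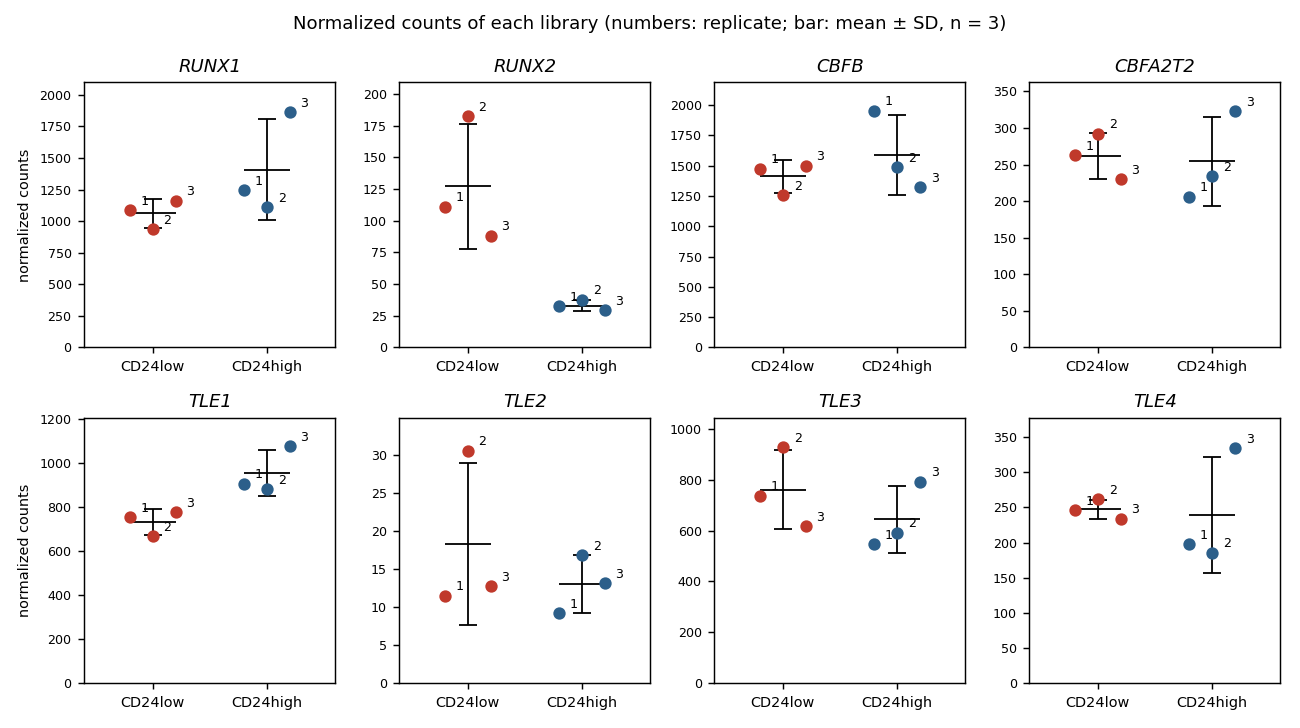
Normalized counts (vertical axes, from 0) of the 8 tested members in each CD24low library (red, left) and CD24high library (blue, right), with the replicate number beside each point and the mean ± SD of 3 libraries as bars. RUNX2 lies at 88.2 to 182 in CD24low and at 29.2 to 37.5 in CD24high libraries, and TLE1 is the other member whose libraries do not overlap.

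RUNX1 was lower on average in CD24low cells, but the libraries overlapped and no test called it. It had 1087, 937 and 1163 normalized counts in CD24low replicates 1, 2 and 3, against 1246, 1111 and 1862 in CD24high replicates 1, 2 and 3. CD24high replicate 3 stood far above the other libraries, which lay within 937 and 1246. The difference was -0.37 (SE 0.18, 95% interval -0.79 to 0.04), with adjusted p of 0.406 by limma and 0.349 by DESeq2. Without CD24high replicate 3 it was -0.15, and in the low-rRNA and high-rRNA libraries it was -0.02 and -0.88. RUNX1 (ENSG00000159216.18) spans chromosome 21, 34787801 to 36004667, on the minus strand. The 7 other genes annotated within that span had at most 4.94 normalized counts in any library.

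RUNX3 (ENSG00000020633.18, chromosome 1, 24899511 to 24965121, minus strand) had 0 reads in each of the 6 libraries. A count of 0 allows up to 3 reads, which is 2.64 to 2.94 normalized counts in CD24low and 2.49 to 4.38 in CD24high libraries, for counting error only. At this depth RUNX3 was not detected in either fraction.

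Per kilobase of merged exons, a scale on which genes can be compared, RUNX2 made up a larger part of the RUNX level in CD24low cells. Its share of the summed RUNX1, RUNX2 and RUNX3 level was 16.3%, 27.0% and 12.6% in CD24low libraries and 4.70%, 6.03% and 2.90% in CD24high libraries. The means were 18.6% ± 7.49 and 4.55% ± 1.57 (SD, n = 3 each), and the fractions did not overlap. RUNX1 held the rest, so it was the major RUNX transcript in each library. The summed RUNX level was 83.3, 82.4 and 85.4 normalized counts per kilobase in CD24low libraries. In CD24high libraries it was 84.0, 75.9 and 123. The summed levels thus overlapped, and CD24high replicate 3 was the highest. The lengths matter: with the longest annotated transcript as length the RUNX2 share was 8.58% to 19.4% in CD24low and 1.91% to 4.01% in CD24high libraries. These shares are given with no test.

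**Figure D2:**
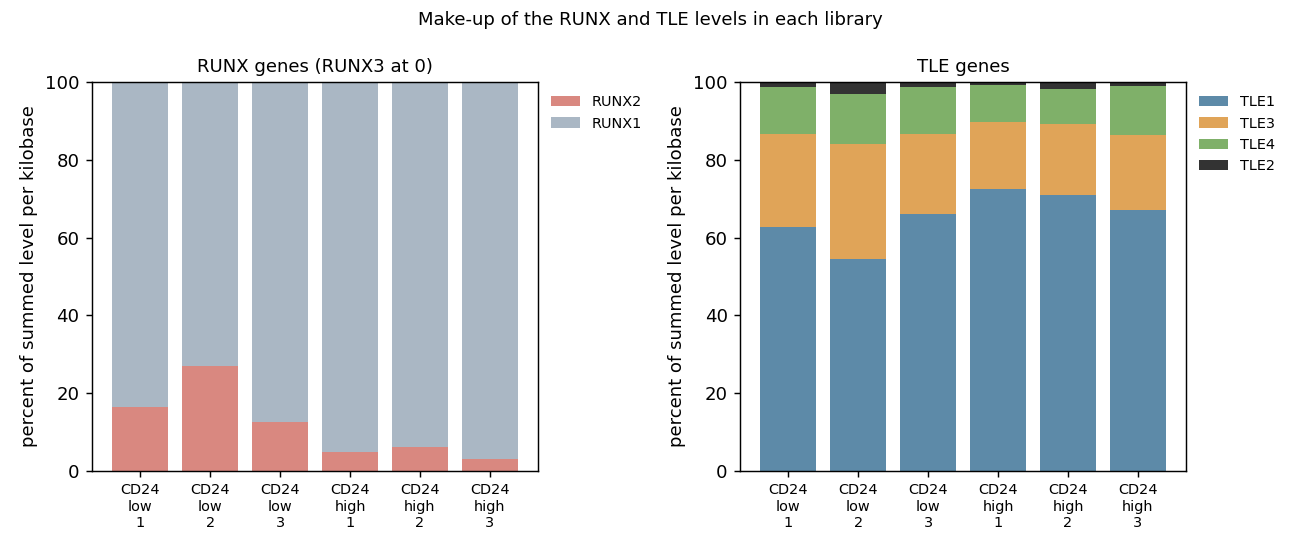
Percent of the summed level per kilobase of merged exons held by each RUNX gene (left) and each TLE gene (right), with 1 bar for each library, CD24low before CD24high. The RUNX2 part is 12.6% to 27.0% in CD24low and 2.90% to 6.03% in CD24high libraries, and the TLE1 part is 54.5% to 66.2% in CD24low and 67.2% to 72.6% in CD24high libraries.

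CBFB, the partner shared by all RUNX proteins, overlapped between the fractions, and no test called it. It had 1475, 1257 and 1499 normalized counts in CD24low replicates 1, 2 and 3, against 1953, 1485 and 1324 in CD24high replicates 1, 2 and 3. CD24high replicate 1 was the highest and the other libraries were mixed. The difference was -0.16 (SE 0.15, 95% interval -0.50 to 0.19, limma adjusted p = 0.696), and 0.004 without CD24high replicate 1. It was -0.18 and 0.04 in the low-rRNA and high-rRNA libraries. CBFB lies on chromosome 16, 67029116 to 67101058, on the plus strand (ENSG00000067955.13). On the scale per kilobase CBFB stood above the summed RUNX level by a factor of 4.29, 3.69 and 4.25 in CD24low libraries and of 5.63, 4.74 and 2.60 in CD24high libraries. With the longest transcript as length the factors were 2.8, 2.51 and 2.73 in CD24low and 3.52, 2.97 and 1.62 in CD24high libraries. With either length these ratios overlapped between the fractions, and they concern RNA alone.

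TLE1, a full-length Groucho corepressor, was lower in each CD24low library than in any CD24high library. It had 753, 665 and 776 normalized counts in CD24low replicates 1, 2 and 3, against 904, 880 and 1074 in CD24high replicates 1, 2 and 3. The gap between the fractions, from 776 to 880, was narrow beside the distance of CD24high replicate 3 from its group. The difference was -0.38 (SE 0.12, 95% interval -0.66 to -0.10), a fold of 0.769. It did not pass adjustment over all genes (0.245 by limma, 0.157 by DESeq2, 0.242 by edgeR), and it was negative in each alternative fit, from -0.43 to -0.29. In the low-rRNA and high-rRNA libraries it was -0.20 and -0.60. TLE1 (ENSG00000196781.14) lies on chromosome 9, 81583683 to 81689305, minus strand, and its processed copy TLE1P1 had 5.88 to 15.0 normalized counts in CD24low and 4.98 to 19.0 in CD24high libraries.

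TLE3, another full-length Groucho gene, had 738, 929 and 618 normalized counts in CD24low replicates 1, 2 and 3, against 547, 593 and 793 in CD24high replicates 1, 2 and 3. The fractions overlapped through CD24high replicate 3, and the difference was 0.24 (SE 0.18, 95% interval -0.17 to 0.65, limma adjusted p = 0.600). It was 0.12 and 0.06 in the low-rRNA and high-rRNA libraries. With 1 library left out it was smallest, at 0.09, without CD24low replicate 2, and largest, at 0.40, when CD24high replicate 3 was dropped; dropping CD24high replicate 1 gave 0.13. TLE3 (ENSG00000140332.15) is on chromosome 15, 70047790 to 70098176, minus strand.

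TLE4 had 246, 262 and 234 normalized counts in CD24low replicates 1, 2 and 3, against 198, 186 and 335 in CD24high replicates 1, 2 and 3. The CD24low libraries lay between 2 lower and 1 higher CD24high library. The difference was 0.10 (SE 0.22, 95% interval -0.39 to 0.59, limma adjusted p = 0.879), 0.37 without CD24high replicate 3 and -0.06 without CD24high replicate 2. It was 0.29 and -0.40 in the low-rRNA and high-rRNA libraries. TLE4 (ENSG00000106829.18) is on chromosome 9, 79571773 to 79726882, plus strand. A processed pseudogene inside it, AL353813.1, had 4.78 to 11.5 normalized counts in CD24low and 8.89 to 13.2 in CD24high libraries.

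TLE2 was scarce, with 11.5, 30.6 and 12.7 normalized counts in CD24low and 9.13, 16.8 and 13.2 in CD24high libraries, from 9 to 32 reads. CD24low replicate 2 was high and the others were alike. The difference of 0.36 (SE 0.44, 95% interval -0.61 to 1.34, limma adjusted p = 0.757) turned to -0.06 without CD24low replicate 2. It was 0.03 and 0.49 in the low-rRNA and high-rRNA libraries. TLE2 (ENSG00000065717.14) is on chromosome 19, 2997638 to 3047635, minus strand.

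CBFA2T2 had 263, 292 and 230 normalized counts in CD24low replicates 1, 2 and 3, against 206, 234 and 323 in CD24high replicates 1, 2 and 3. The order of the libraries was mixed, with CD24high replicate 3 the highest and CD24high replicate 1 the lowest. The difference was 0.06 (SE 0.19, 95% interval -0.36 to 0.48, limma adjusted p = 0.916), 0.25 without CD24high replicate 3 and -0.08 without CD24high replicate 1. It was 0.07 and -0.22 in the low-rRNA and high-rRNA libraries. CBFA2T2 (ENSG00000078699.21) is on chromosome 20, 33490075 to 33650036, plus strand.

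CD24high replicate 3 held the highest value of 4 of the 8 tested members, RUNX1, CBFA2T2, TLE1 and TLE4, and the lowest value of RUNX2. Among all genes tested, 19.0% had their highest and 20.9% their lowest value in that library. CD24low replicate 2 held the highest value of 3 members, RUNX2, TLE2 and TLE3, and the lowest of RUNX1, CBFB and TLE1. That library was the highest for 23.7% and the lowest for 26.3% of all genes tested. CD24high replicate 3 also had the fewest reads and the highest rRNA share, whose part in these values was not tested.

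**Figure D3:**
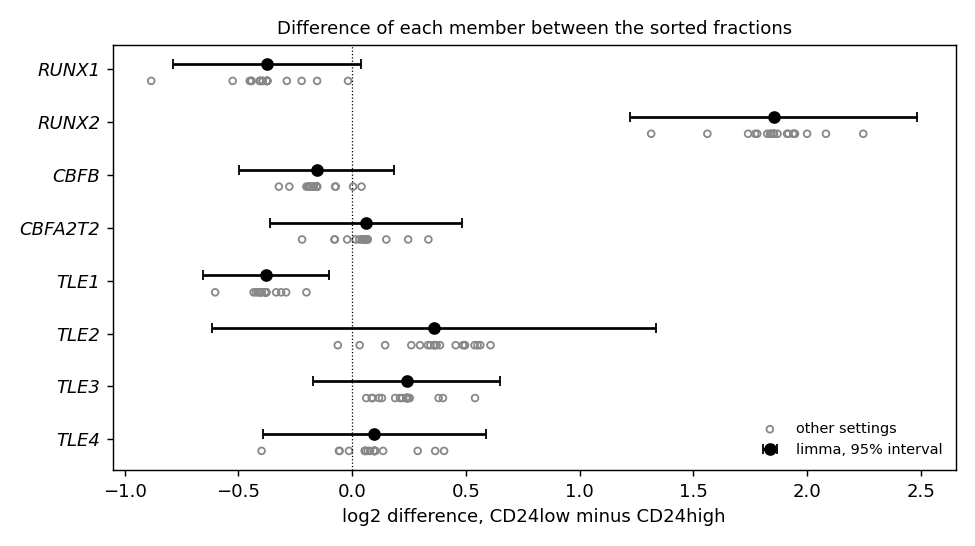
Log2 difference, CD24low minus CD24high, of each tested member: filled points with bars are limma's estimate and 95% interval, and open circles are the same difference under the other settings and among libraries of like rRNA share. The circles of RUNX2 lie from 1.31 to 2.25, TLE1 and RUNX1 lie below 0 throughout, and the circles of CBFB, CBFA2T2, TLE2 and TLE4 fall on both sides of 0.

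Per kilobase, TLE1 was the major Groucho transcript in both fractions and its share was smaller in CD24low cells. It made up 62.7%, 54.5% and 66.2% of the summed TLE1 to TLE4 level in CD24low libraries, against 72.6%, 70.9% and 67.2% in CD24high libraries. TLE3 made up 23.9%, 29.6% and 20.5% in CD24low libraries, against 17.1%, 18.5% and 19.3% in CD24high libraries. The fractions did not overlap for either share, though CD24low replicate 3 and CD24high replicate 3 lay close to each other. TLE4 held 12.3%, 12.9% and 12.0% in CD24low and 9.50%, 8.96% and 12.5% in CD24high libraries, and TLE2 held 0.89% to 3.04% over all libraries. With the longest transcript as length TLE1 held 48.1% to 60.2% in CD24low and 61.2% to 67.1% in CD24high libraries. No test was run on these shares, which sum to the whole, so that a lower part of one gene means a higher part of the others. The summed TLE level was 245, 249 and 239 normalized counts per kilobase in CD24low libraries, against 254, 253 and 326 in CD24high libraries, with no overlap. With the longest transcript as length the sums overlapped, at 331 to 355 in CD24low and 346 to 451 in CD24high libraries. These sums were not tested either.

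Of the related genes outside the set, AES, now named TLE5, was the only one past the filter. AES is a short Groucho protein without the WD repeats and can counteract the long ones. It had 2147, 2603 and 2117 normalized counts in CD24low libraries, against 1667, 2054 and 2000 in CD24high libraries. Every CD24low library was above every CD24high library, by a narrow margin. The difference of 0.26 (SE 0.13, 95% interval -0.02 to 0.55), 0.19 and 0.24 in the low-rRNA and high-rRNA libraries, had an adjusted p of 0.402 by limma and 0.458 by DESeq2. TLE6 had 2.64 to 8.60 normalized counts in CD24low and 0 to 7.31 in CD24high libraries. TLE7, CBFA2T3 and RUNX1T1 had 0 reads in each library, so CBFA2T2 was the ETO family gene with reads.

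**Figure D4:**
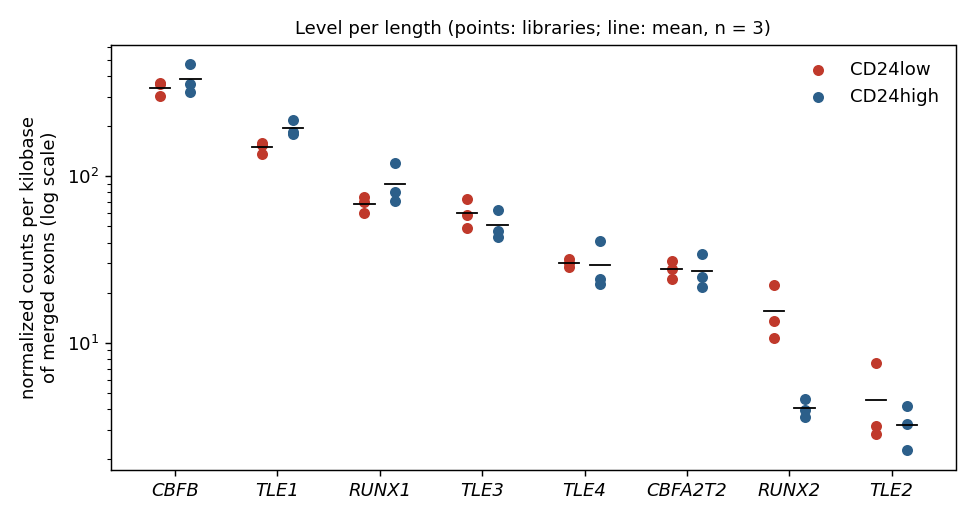
Normalized counts per kilobase of merged exons (log scale) of the tested members, with CD24low libraries in red to the left of CD24high libraries in blue and a line at each mean of 3. CBFB is highest, at 342 in CD24low and 384 in CD24high cells, TLE2 is lowest, and RUNX3, at 0 in each library, is not drawn.

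Ordered by level per kilobase, CBFB stood first among the members, with 342 ± 32.3 in CD24low and 384 ± 79.2 in CD24high cells (SD, n = 3 each). TLE1 followed with 149 ± 11.9 in CD24low and 194 ± 21.6 in CD24high cells. RUNX1 had 68.2 ± 7.37 in CD24low and 90.3 ± 25.7 in CD24high cells. TLE3 was next, with 60.3 ± 12.4 in CD24low and 51.0 ± 10.4 in CD24high cells. Libraries of RUNX1 and TLE3 overlapped in CD24low cells and not in CD24high cells. TLE4 had 30.2 ± 1.69 in CD24low and 29.2 ± 10.1 in CD24high cells. CBFA2T2 had 27.7 ± 3.28 in CD24low and 26.9 ± 6.46 in CD24high cells, and its libraries overlapped those of TLE4 in both fractions. RUNX2 had 15.5 ± 6.0 in CD24low and 4.03 ± 0.513 in CD24high cells. TLE2 had 4.52 ± 2.65 in CD24low and 3.23 ± 0.95 in CD24high cells, so that RUNX2 and TLE2 overlapped in CD24high cells and not in CD24low cells. In this order RUNX2 kept its place, below CBFA2T2 and above TLE2, in both fractions.

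Genes that act around RUNX proteins were counted in 4 lists. Of 19 coregulators of RUNX proteins, among them the acetyltransferases EP300 and KAT6A, the corepressors NCOR1 and SIN3A, the histone deacetylases HDAC1 to HDAC7 and the coactivators YAP1 and WWTR1, all 19 were tested and 0 passed limma, edgeR or DESeq2 (0 at an unadjusted limma p below 0.05, where 13.5% of all genes lay), with a median difference of 0.09. The smallest limma p values were those of HDAC3 (1211, 1242 and 1349 normalized counts in CD24low, 1139, 1126 and 1039 in CD24high libraries), HDAC1 (difference 0.20) and HDAC7 (difference 0.36). HDAC1 and HDAC3 were the 2 of 19 whose CD24low libraries all lay above the CD24high ones, with 10.2% of all genes doing so.

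Of 9 genes for turnover or modification of RUNX proteins, 9 were tested, 0 passed limma or edgeR and 1 was higher by DESeq2, with a median difference of -0.06. At an unadjusted limma p below 0.05 there were 2 higher and 1 lower. Over all genes, DESeq2 called 1.36% higher, limma called 0%, and 13.5% lay below the unadjusted threshold. HIPK2, a kinase that phosphorylates RUNX1 and its coactivators, had 1376, 2075 and 1076 normalized counts in CD24low libraries, against 825, 856 and 929 in CD24high libraries. The fractions did not overlap, and CD24low replicate 2 was the highest. The difference was 0.74 (SE 0.20), 0.36 and 0.86 in the low-rRNA and high-rRNA libraries, with an adjusted p of 0.016 by DESeq2 and 0.186 by limma. DESeq2's call was lost without CD24low replicate 1 (0.0721), CD24low replicate 2 (0.165), CD24high replicate 1 (0.146), CD24high replicate 2 (0.133) or CD24high replicate 3 (0.0654). The ubiquitin ligases SMURF1 (difference -0.27), SMURF2 (-0.21), WWP1 (-0.09) and FBXW7 (-0.25) passed neither test.

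Of 15 genes named as targets of RUNX2 in bone or breast cancer cells, 8 were tested and 0 passed limma, edgeR or DESeq2, with a median difference of 0.19. At an unadjusted limma p below 0.05 there were 1 higher and 1 lower, beside 13.5% of all genes, while limma and edgeR called 0 of all 16047. The bone genes IBSP, COL10A1 and ALPL had 0 reads in each library, and SPP1, MMP13, MMP9 and SP7 stayed below the filter. PTHLH, which encodes parathyroid hormone-related protein, had 160, 59.2 and 201 normalized counts in CD24low libraries, against 407, 194 and 301 in CD24high libraries (difference -1.21, SE 0.42, limma adjusted p = 0.269, DESeq2 adjusted p = 0.0713). It was -0.48 and -1.62 in the low-rRNA and high-rRNA libraries. Its libraries overlapped by a narrow margin, between 201 and 194. BGLAP, which encodes osteocalcin, had 18.5, 22.9 and 22.5 normalized counts in CD24low libraries, from 21, 24 and 23 reads. In CD24high libraries it had 11.6, 9.88 and 13.2, from 14, 10 and 9 reads. The difference was 0.83 (SE 0.31, limma adjusted p = 0.295, DESeq2 adjusted p = 0.506). BGLAP differed by 1.01 and 0.61 in the low-rRNA and high-rRNA libraries. COL1A1, the main collagen chain of bone, differed by 1.01 (SE 0.47, limma adjusted p = 0.382), and by 0.23 and 1.06 in the low-rRNA and high-rRNA libraries, with 27.4 to 110 normalized counts in CD24low and 18.3 to 38.0 in CD24high libraries; it is also one of the 8 fibroblast markers.

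Of 15 repressors known to recruit Groucho proteins, 10 were tested, 0 passed limma or edgeR and 1 was lower by DESeq2, with a median difference of -0.24. At an unadjusted limma p below 0.05 there was 1, also lower, beside 13.5% of all genes, and DESeq2 called 1.15% of all genes lower. HES2, a basic helix-loop-helix repressor of the hairy family, had 90.8, 117 and 139 normalized counts in CD24low libraries, against 215, 254 and 314 in CD24high libraries. No CD24low library reached the lowest CD24high value. The difference was -1.17 (SE 0.21), -0.74 and -1.60 in the low-rRNA and high-rRNA libraries, with an adjusted p of 0.000221 by DESeq2 and 0.0778 by limma. DESeq2 called HES2 in each fit without 1 library, with adjusted p up to 0.0161. HES1, the best known Groucho partner of the family, differed by -0.09 (SE 0.17, limma adjusted p = 0.845), and by -0.25 and 0.04 in the low-rRNA and high-rRNA libraries. The WNT effectors TCF7, TCF7L2 and LEF1 differed by -0.24, -0.24 and -0.43 and passed neither test.

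**Figure D5:**
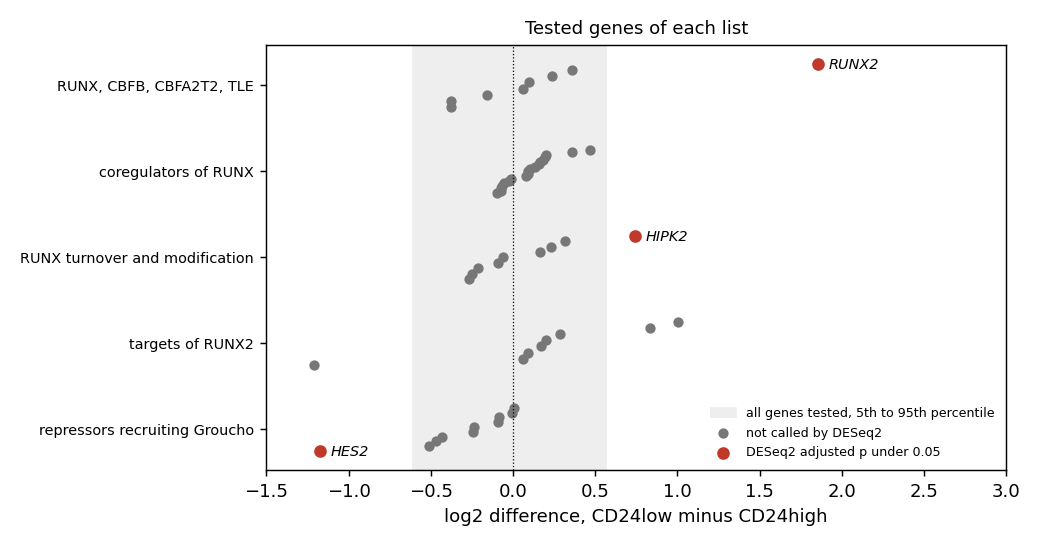
Log2 difference, CD24low minus CD24high, of each tested gene of the set and of the 4 lists around it, with the 5th to 95th percentile of all genes tested shaded (-0.61 to 0.56) and genes called by DESeq2 in red. RUNX2, HIPK2 and HES2 are the red points.

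The genes most like RUNX2 over the 6 libraries were PCDH7, EMP3, PRR5L, ATP8B3 and SULT1B1. Likeness was measured among 11295 protein-coding genes whose mean reached 50 normalized counts, as the root mean square distance between centred log2 profiles, which was 0.206 to 0.240 for these 5 against a median of 0.999. PCDH7, a protocadherin, had 258, 639 and 202 normalized counts in CD24low and 93.8, 101 and 77.4 in CD24high libraries, so that CD24low replicate 2 was its highest library too. For RUNX1 the closest were PVRIG, MYEOV, SLC16A13, SH3BP1 and KRT80 (0.059 to 0.107, median 0.351). For TLE4 they were PABPC1L, PLEKHA6, MRTFA, ESPL1 and GABRE (0.062 to 0.079, median 0.345). All 10 genes closest to RUNX1 and TLE4 were highest in CD24high replicate 3, as were RUNX1 and TLE4 themselves, beside 19.0% of all genes tested. The closest genes were chosen for likeness over these same libraries, so a shared highest library follows from the choice. These distances describe the 6 libraries and were not tested.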

How the data were processed

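Total RNA of sorted MCF10AT1 cells, depleted of rRNA, was sequenced in strand-specific libraries, per the labels' protocols. The deposited signal is a normalized count for each gene, scaled by the authors with 1 size factor a library; the submitters' processing notes name DESeq2 and also list STAR 2.5.2, R 3.5.0 and hg38. The read counter is not given in the sources used here. Every value was a whole multiple of 1 step per library, so whole reads were recovered (100% within 0.1 reads). Of 58381 IDs, 58261 matched GENCODE 29 without version; symbols, coordinates and exon lengths come from it. Floors of 3 reads cover counting error only.

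The main test was limma 3.58.1 (R 4.3.3) on log2 (normalized count + 1) with a trended prior variance, two-sided, over 16047 genes whose mean reached 10, with Benjamini-Hochberg adjustment over all of them and a threshold of 0.05. The pseudocount understates changes of low genes. DESeq2 1.42.0 and edgeR 4.0.16 (quasi-likelihood, TMM) were run on the recovered reads; the fits were tested on simulated data. Python 3.11.15, pandas 2.3.3 and matplotlib 3.10.9 were used. Replicates of a group differed by more than sampling noise. No label ties them to separate cultures; p-values thus reflect a spread among libraries that may be technical only. Members and gene lists were chosen with earlier results of these data known. The rule for named genes took all members, their family, the called genes of each list or else the 3 with the smallest limma p, and the 5 genes most like RUNX2, RUNX1 and TLE4. SMURF1, SMURF2, WWP1, FBXW7, HES1, TCF7, TCF7L2, LEF1 and SUPT3H were named after their values were seen. Protein sequences were not used here.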

Additional observations from a re-analysis of the deposited data

How the results depend on the processing

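Limma called 0 genes with the settings of the report (2164 at an unadjusted p below 0.05) and 0 of the members; edgeR called 0 as well (2263 unadjusted). The count of genes was 164 with no filter, 402 with DESeq2 and 103 without both libraries numbered 3, and 0 to 366 with 1 library left out, the 366 being without CD24low replicate 3. In each of these fits with calls, 1 member, RUNX2, was called, so that the count of members was 0 to 1 with 1 library left out. With DESeq2, chosen for this check after the data had been seen, the count of genes was 137 (without CD24low replicate 2) to 841 (without CD24low replicate 3) with 1 library left out, and 699 without both libraries numbered 3; the count of members was 1 in each. The labels number the libraries 1 to 3 in both fractions and do not say whether the numbers pair them. Deviations of same-numbered libraries from their group means correlated at 0.266, 0.301 and 0.051 for numbers 1, 2 and 3. For unlike numbers the correlations ran from -0.263 to 0.075, highest for CD24low replicate 3 with CD24high replicate 1. The main test did not pair the libraries, and whether the numbers pair them is not settled here. With the replicate block limma called 716 genes and edgeR 705, with 1 member, RUNX2, in each (adjusted p 0.000443 by limma and 0.00102 by edgeR). Limma did not call RUNX2 with rRNA share as a covariate (adjusted p = 0.278), without a trend (0.22) or without CD24high replicate 3 (0.269). RUNX1, TLE1, TLE3 and RUNX2 kept their direction in all alternatives. CBFB differed by -0.28 to 0.004 with 1 library left out, CBFA2T2 by -0.078 to 0.246, TLE2 by -0.063 to 0.608 and TLE4 by -0.058 to 0.365; with rRNA share as a covariate CBFA2T2 was at -0.076 and TLE4 at -0.055. The direction turned without CD24high replicate 1 for CBFB, without CD24low replicate 2 or CD24high replicate 1 for CBFA2T2, without CD24low replicate 2 for TLE2 and without CD24high replicate 1 or 2 for TLE4. The cause was not tested. TLE2, with 9 to 32 reads, is limited by depth.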
